A study of Mus musculus with 18 samples.

Results

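Homoharringtonine (HHT) was compared with DMSO vehicle in the cleared lysate of mouse brain slices, using 6 of the 18 libraries of a polysome RNA sequencing study. The members were all libraries labelled as input: 4 from HHT slices (WT and KO, 2 replicates each) and 2 from vehicle slices (1 WT, 1 KO). WT slices came from wild-type mice and KO slices from Fmr1 knockout mice, which lack FMRP, an RNA-binding protein that is missing in fragile X syndrome. All were male C57BL/6N mice at postnatal day 28 to 35, and the knockout line had been backcrossed onto C57BL/6. The labels name no tissue-specific driver for the knockout, and no cell type was sorted. Slices of hippocampus and cortex, 400 µm thick, were kept for 30 min at 30 °C in 20 µM HHT or in vehicle, and 10 slices from 2 or 3 mice were pooled for each replicate. The tissue was homogenised without detergent and spun at 2000 g and then at 10000 g. The supernatant received 1% NP-40 after that, and a part of it was sequenced as the cleared lysate. The other 12 libraries of the series are medium and heavy polysome fractions, which entered the fit only to estimate the spread.

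HHT binds the ribosome and stalls it as it begins a coding sequence, while ribosomes already further along finish and leave. mRNAs for secreted and membrane proteins are usually translated on the surface of the endoplasmic reticulum (ER). A hydrophobic stretch near the start of the growing protein is bound by the signal recognition particle (SRP), which takes the ribosome and its mRNA to the Sec61 channel. Tail-anchored proteins are an exception, because their only membrane span lies at the very end and leaves the ribosome after synthesis is complete. Most mitochondrial proteins are also made by cytosolic ribosomes and imported later.

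The coding stretches below show hydrophobic stretches at different places in a protein, by which genes are grouped further on. They are printed 5′ to 3′ from GENCODE M21 transcripts on GRCm38, and the capitals mark the codons of the window that met the hydropathy threshold. The stretches for Calr (chromosome 8, 84841850 to 84846934, minus strand), Chga (chromosome 12, 102554969 to 102565028, plus strand) and L1cam (chromosome X, 73853778 to 73896105, minus strand) are coding bases 1 to 105. Their windows begin at residues 7, 5 and 11. For Nalcn (chromosome 14, 123276634 to 123627144, minus strand) coding bases 94 to 180 are shown, with a window from residue 37. For Vamp2 (chromosome 11, 69088490 to 69092384, plus strand) the last 75 coding bases before the stop codon are shown, with a window from residue 96 of 115. Sec61b (chromosome 4, 47474658 to 47483242, plus strand) is shown from coding base 181 to 267, with a window from residue 66 of 95.
Calr: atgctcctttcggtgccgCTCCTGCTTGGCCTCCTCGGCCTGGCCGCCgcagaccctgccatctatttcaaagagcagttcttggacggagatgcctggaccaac
Chga: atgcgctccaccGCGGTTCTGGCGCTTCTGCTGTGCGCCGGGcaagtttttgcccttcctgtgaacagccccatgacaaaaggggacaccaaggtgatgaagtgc
L1cam: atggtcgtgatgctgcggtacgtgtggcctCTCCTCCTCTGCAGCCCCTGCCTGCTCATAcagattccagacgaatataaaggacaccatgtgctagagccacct
Nalcn: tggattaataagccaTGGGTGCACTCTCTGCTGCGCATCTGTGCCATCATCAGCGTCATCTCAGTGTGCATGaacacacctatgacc
Vamp2: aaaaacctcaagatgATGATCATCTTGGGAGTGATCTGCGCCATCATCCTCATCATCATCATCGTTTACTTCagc
Sec61b: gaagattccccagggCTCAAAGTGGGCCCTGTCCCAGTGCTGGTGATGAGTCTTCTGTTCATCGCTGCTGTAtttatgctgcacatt

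The 4 genes at the top of this set rose after HHT and the 2 with a late window did not pass. L1cam and Nalcn are extremes and not typical cases. L1cam had the largest rise of all genes tested. Nalcn had the largest rise among genes with internal segments only, a class defined below. In that class 22.9% of genes rose and the median change was 0.17. Calr encodes calreticulin, a lectin chaperone of the ER lumen. It held 149.7 CPM (counts scaled to a common library total) in WT vehicle and 248 in KO vehicle, against 545 and 595 in the WT HHT libraries and 547 and 607 in the KO HHT libraries. All 4 HHT values lay above both vehicle values, and the change was 1.57 ± 0.19 on the log2 scale (SE, adjusted p = 0.00097 by edgeR). Chga, the granule protein chromogranin A, went from 44.5 and 73.1 CPM in vehicle to 259, 183, 230.4 and 186 in HHT, in the same order of libraries. L1cam, an adhesion molecule of axons, went from 31.1 and 35.4 CPM to 256, 92.0, 275 and 127. The groups did not overlap, but replicate 1 lay far above replicate 2 in both genotypes. Nalcn, a sodium leak channel, went from 23.1 and 27.0 CPM to 123, 59.2, 123 and 61.3, again with replicate 1 higher. Vamp2, the tail-anchored fusion protein of synaptic vesicles, held 2110.5 and 2206 CPM in vehicle and 1974, 2179, 2048 and 2516 in HHT. Sec61b, the tail-anchored subunit of the Sec61 channel, held 10.9 and 13 CPM in vehicle and 7.63, 12.4, 10.6 and 15.8 in HHT. HHT and vehicle values overlapped for both, with changes of 0.01 ± 0.13 and -0.07 ± 0.21 (adjusted p = 0.985 and 0.934 by edgeR).

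**Figure D1:**
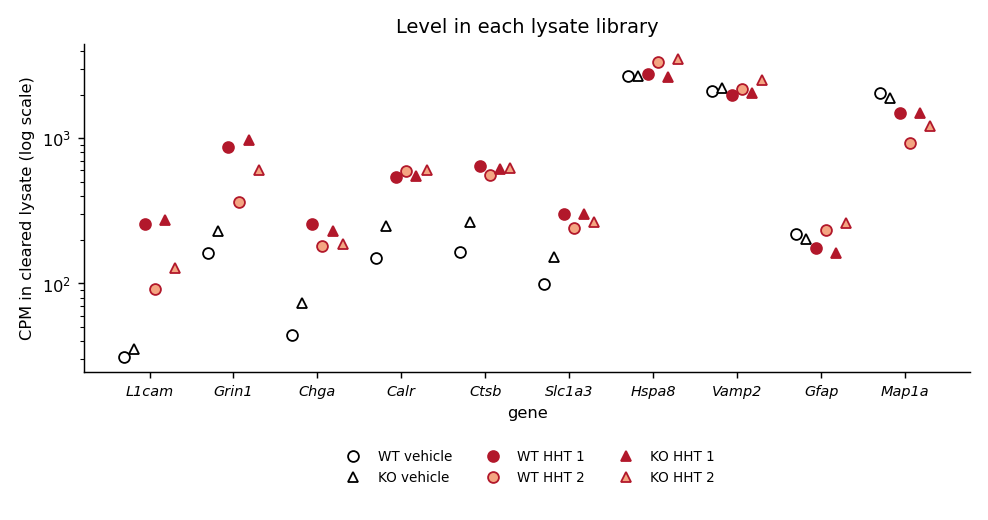
CPM in cleared lysate (log axis) for 10 genes in each of the 6 libraries: open symbols are vehicle, dark red HHT replicate 1, light red HHT replicate 2, circles WT and triangles KO. L1cam, Grin1, Chga, Calr, Ctsb and Slc1a3 lie above both vehicle libraries in every HHT library, Hspa8, Vamp2 and Gfap overlap vehicle, and Map1a lies below it.

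Of 13973 genes tested, 1702 rose (12.2%) and 30 fell (0.215%), and the median change over all genes was -0.0023 on the log2 scale. The median rise was 0.96, and 763 genes rose by at least 1 log2 unit. The falls were small, from -0.77 to -0.35. For 2566 genes (18.4%) the lowest HHT library exceeded the higher of the 2 vehicle libraries. These included 1640 of the 1702 that rose. For 1583 genes (11.3%) the highest HHT library lay under both vehicle libraries, which included all 30 that fell. To leave out an HHT replicate, here and below, means leaving out the 3 libraries of its lysate, so the spread comes from fewer libraries. Without KO HHT replicate 1 edgeR called 1047 rises and 96 falls, and KO slices alone gave 0 of each. The number of falls also depended on scaling and on the libraries fitted, with 230 by total counts, 3 with TMM factors from genes without a hydrophobic segment and 0 with the 6 lysate libraries alone. The library totals ran from 6298975 to 13834652 estimated counts, and the median SE of the comparison was 0.174. The RNA taken into each library was set to 200 ng, so a value is a share of the RNA of that lysate. The pellets of the spins and whole slices were not analysed here, so more of an mRNA in the slice and more of it left in the supernatant cannot be told apart.

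Neurons and cortex were well represented in every library. Rbfox3 ran from 409 to 472 CPM, Tubb3 from 463 to 615 and Snap25 from 2649 to 3535. The neuronal gene Syt1 was less even, with 827 and 1149 CPM in vehicle and 1404 to 2563 in HHT. The 4 cortical marker genes checked were present in each library. The hippocampal genes Prox1 and Neurod6 were present as well, at 27.8 to 44.2 and 106 to 142 CPM, while Zbtb20 was low at 3.13 to 5.33 CPM. Wfs1, also a hippocampal gene, held 79.3 and 112 CPM in vehicle and 159 to 290 in HHT. Fmr1 was lower in KO (8.04 CPM in vehicle, 8.53 and 5.07 in HHT) than in WT (25.1, 22.4 and 32.2), and HHT did not change it past the threshold (-0.07 ± 0.23, adjusted p = 0.939 by edgeR).

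Proteins were classed by Kyte-Doolittle hydropathy, a scale of how strongly a residue avoids water, from 1 annotated coding sequence for each of 13498 genes. An N-terminal segment was a window of 10 residues that started at residues 2 to 25 with a mean of at least 2.2, as in a signal peptide or a first membrane span. Any other segment was a window of 19 residues with a mean of at least 1.6 that started after residue 25. Rises were concentrated in genes whose product had such a segment. Among 936 genes with an N-terminal segment alone 368 rose (39.3%), with a median change of 0.56. Among 1287 with an N-terminal segment and further ones 638 rose (49.6%), with a median of 0.69. Among 2625 with internal segments only 600 rose (22.9%), with a median of 0.17. Where the sole segment lay in the last 50 residues, 20 of 253 rose (7.91%) and the median was -0.02. Among 8397 genes with no segment 66 rose (0.786%), with a median of -0.07. Of the 1692 genes that rose and had a coding sequence, 96.1% had a segment, against 37.8% of all genes with a coding sequence. With the classes kept as they are, the share among rises was 95.4 to 96.8% under the other ways of fitting and scaling that gave rises, except HHT replicate 2 alone, where it was 85.6%.

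**Figure D2:**
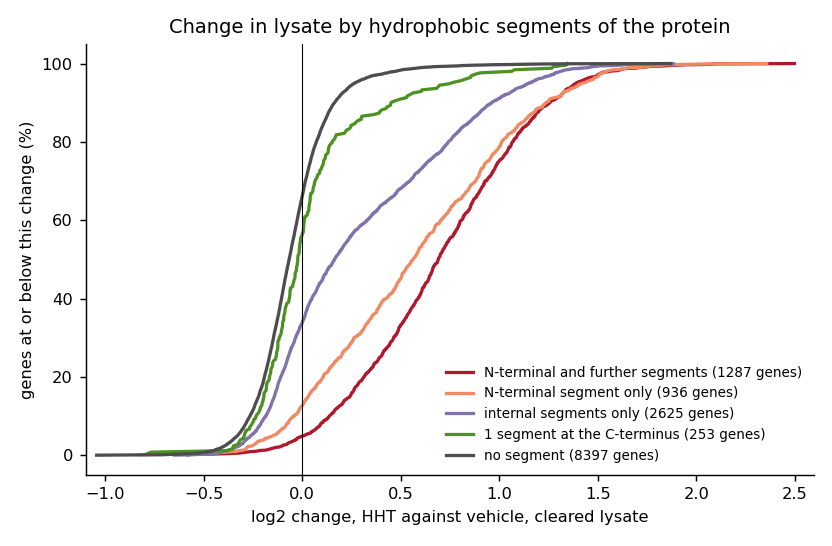
Cumulative share of genes (%) by log2 change of HHT against vehicle in cleared lysate, for 5 classes of protein. The curves for genes with no segment and with 1 segment at the C-terminus rise steeply near 0, with medians of -0.07 and -0.02, while those with an N-terminal segment have medians of 0.56 and 0.69.

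The classes are predictions, and some genes stood outside the pattern of their class. Among the 66 genes that rose without a segment, 38 had one at the lower thresholds of 2.0 and 1.4. The share of all 8397 genes without a segment that gain one there is not given here, so 38 of 66 carries no comparison. Several of the 66 encode known secreted or lumenal proteins, among them the ER calcium-binding protein Calu (1.08 ± 0.13), the protease inhibitor Serpine2 (1.34 ± 0.16), the secretory chaperone Scg5 (1.22 ± 0.17) and the lysosomal thioesterase Ppt1 (0.94 ± 0.14). Of the 20 that rose with a C-terminal segment alone, Prnp (1.08 ± 0.16), the prion protein, is anchored by a lipid, and Cx3cl1 (1.27 ± 0.19), Mmp14 (1.27 ± 0.19) and Tmed10 (0.81 ± 0.14) span the membrane once after a signal peptide that the thresholds missed. In the other direction, internal windows were found in soluble proteins such as Camk2a (-0.21 ± 0.13), Camk2b (-0.19 ± 0.10) and the glycolytic enzyme Pkm (0.07 ± 0.11), none of which passed. The transcript annotated as principal may not be the one expressed.

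Among genes with internal segments only, the changes were smaller where the first segment began later. When it began at residues 26 to 100, 409 of 1045 genes rose (39.1%) and the median change was 0.53. From 101 to 200 the share was 17.0% and the median 0.12, from 201 to 400 it was 9.47% and 0.02, and from 401 to 800 it was 11.4% and -0.02. From 801 to 1600 it was 8.11% and -0.07, and after residue 1600 1 of 46 genes rose (2.17%), with a median of -0.08. Spearman's rho between the change and the position was -0.44 across these 2625 genes, which are not independent replicates and share the same 6 libraries. A late first segment needs a long protein, and position was not tested apart from length. For protein length rho was -0.185 in these genes and -0.139 with no segment. It was 0.112 and 0.229 with N-terminal segments, and 0.0094 with a sole C-terminal one. After residue 1600 the median differences from the vehicle library of the genotype were 0.03 and 0.09 in WT and KO replicate 1. In replicate 2 they were -0.24 and -0.24. A single internal window is often no membrane span, so shares are also given by the number of segments. With 1 segment 10.9% of genes rose, with 2 or 3 segments 21.2%, with 4 to 6 39.6%, with 7 to 9 51.5% and with 10 to 15 55.7%. With 16 or more segments 4 of 15 rose (26.7%), with a median of 0.80.

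Restricting the set to proteins with 4 or more segments gave a flatter profile. The medians were 0.72 for a first segment at residues 26 to 100 (475 genes), 0.56 at 101 to 200 (155 genes), 0.53 at 201 to 400 (76 genes) and 0.37 at 401 to 800 (33 genes). Bins beyond residue 800 held under 20 genes each. The bin from 801 to 1600 had 4 genes with a median of 0.56, and the 7 genes beyond residue 1600 had a median of -0.07 and 0 rises. Those 7 are named because they are few and were chosen after their values were seen. They are the ER calcium release channels Itpr2 (0.30 ± 0.22), Itpr3 (0.17 ± 0.19), Ryr2 (-0.24 ± 0.21) and Ryr3 (-0.07 ± 0.19), the axonemal dynein Dnah2 (0.04 ± 0.17), and the giant ubiquitin ligases Birc6 (-0.40 ± 0.21) and Mycbp2 (-0.21 ± 0.24). The dynein and the ligases are not known to span a membrane. Ryr2, the calcium release channel of the ER with its membrane spans at the far C-terminus, held 102 and 99.3 CPM in vehicle and 93.6, 69.0, 107 and 69.9 in HHT. The groups overlapped, and replicate 2 was lower than replicate 1 in both genotypes. The list of 6 release channels had a median of 0.09 and 0 calls, with Itpr1 at 0.02 ± 0.19 and Ryr1 at 0.16 ± 0.17. Its median differences from the vehicle library of the genotype were 0.13 and 0.34 in WT and KO replicate 1. In replicate 2 they were -0.18 and -0.10. Position was not tested apart from protein length here either.

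**Figure D3:**
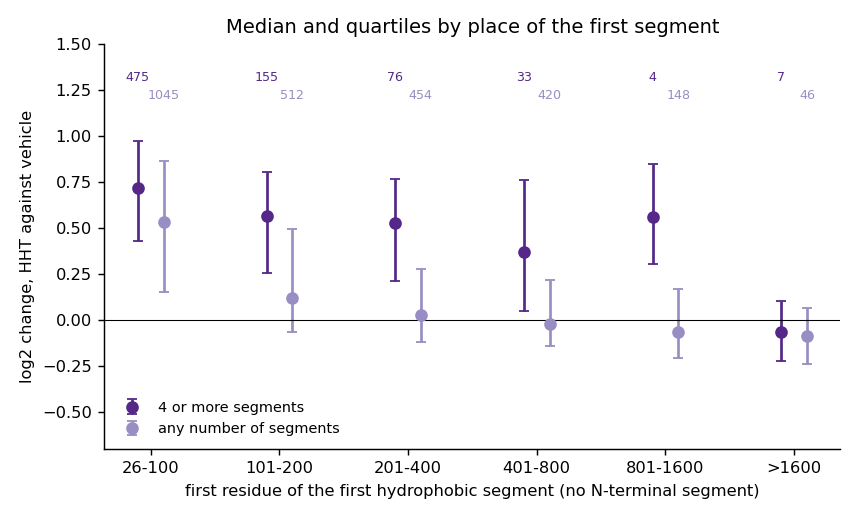
Median log2 change (points) with lower and upper quartiles (bars) by the first residue of the first hydrophobic segment, for genes without an N-terminal segment. Dark points are proteins with 4 or more segments and pale points all such genes, with the number of genes above each bin. The 7 dark genes beyond residue 1600 have a median of -0.07 against 0.72 for the 475 at residues 26 to 100. Protein length was not held fixed.

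Genes were then grouped in 62 lists, of which 61 had a measured member and 17 pairs shared a cell type, complex or pathway but differed in where the product is made. Counting each gene once and leaving out those that are also in a list of mixed or other products, 461 of 642 genes with a product made at the ER rose (71.8%) and 0 fell, with a median change of 0.90. The 6 ER calcium release channels described above, with 0 calls and a median of 0.09, form a list of their own and are not in that count. Of 833 genes whose product is made in the cytosol or enters a membrane or mitochondrion afterwards, 6 rose (0.72%) and 1 fell, with a median of -0.03. Both are read against 12.2% rises over all genes and a median of -0.0023. In all 17 pairs the median was higher in the ER list. The lists were chosen with earlier results of these data known, and the pairs share the same 6 libraries. The 17 are therefore a description and not independent results. Many medians of the cytosolic lists lie so near 0 that their sign depends on the scaling. The lowest lie further from 0, such as -0.15 for postsynaptic scaffolds and for chromatin regulators. By total counts in place of TMM factors the median over all genes moved to -0.106, and changes are to be read relative to it. With TMM factors from genes without a segment it moved to 0.0731.

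**Figure D4:**
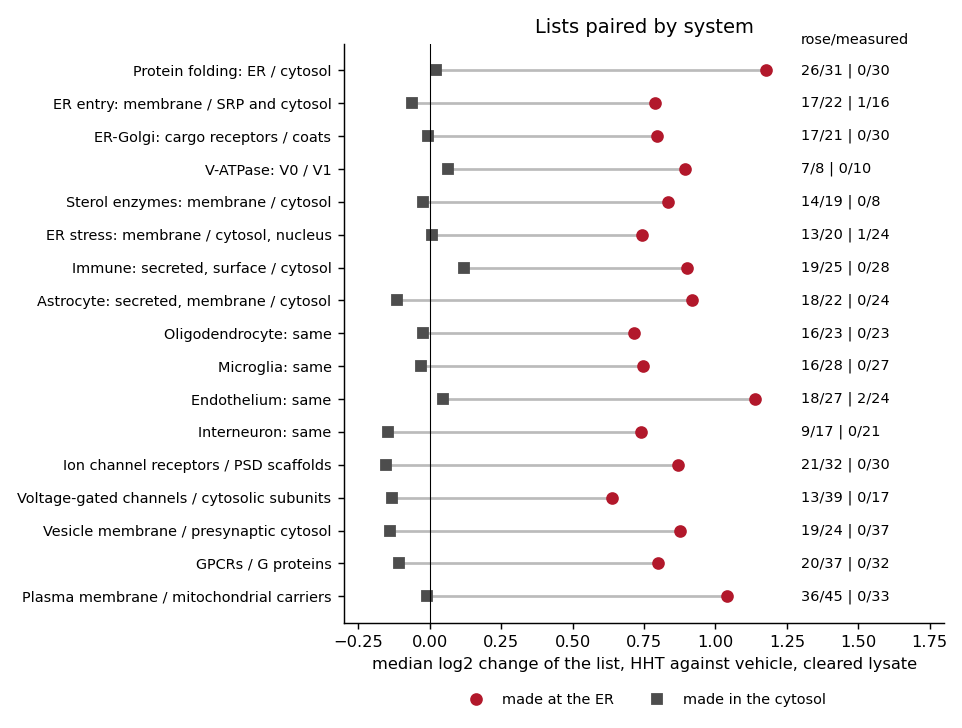
Median log2 change of HHT against vehicle in cleared lysate for 17 pairs of lists, with red circles for products made at the ER and grey squares for those made in the cytosol, or imported into mitochondria in the last pair. Numbers at the right give genes that rose over genes measured in each list, such as 26 of 31 and 0 of 30 for folding.

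The machinery of ER entry split by where its own parts are made. Of 22 membrane components of the translocon, signal peptidase and the ER membrane complex, 17 rose and the median was 0.79. Sec61a1, the pore of the channel, held 26.3 and 35.1 CPM in vehicle and 70.1, 51.1, 79.8 and 57.5 in HHT, with no overlap (1.09 ± 0.19). Emc1 of the ER membrane complex rose by 1.42 ± 0.24, Ssr2 of the translocon-associated complex by 1.09 ± 0.19 and the signal peptidase subunit Spcs2 by 0.81 ± 0.16. Of 16 genes for SRP and other cytosolic targeting factors 1 rose, and the median was -0.06. The SRP proteins Srp54a (-0.01 ± 0.16), Srp9 (-0.07 ± 0.15), Srp68 (-0.14 ± 0.12) and Srp72 (0.11 ± 0.13) did not pass, nor did Bag6 (-0.23 ± 0.14), a handler of tail-anchored proteins. The exception was Srpr, the SRP receptor subunit that docks on its membrane partner Srprb. It held 24.2 CPM in each vehicle library and 49.1, 44.1, 42.5 and 53.7 in HHT (0.97 ± 0.17, adjusted p = 0.00271 by edgeR).

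Chaperones of the ER lumen rose in 26 of 31 cases (median 1.18), and cytosolic chaperones in 0 of 30 (median 0.02). Hsp90b1, the ER member of the Hsp90 family, held 53.8 and 63.2 CPM in vehicle and 217, 208, 215 and 133 in HHT (1.72 ± 0.25). The cytosolic members Hsp90aa1 and Hsp90ab1 were at -0.21 ± 0.19 and 0.16 ± 0.11. Hspa5, the ER Hsp70 known as BiP, rose by 1.44 ± 0.24. Its cytosolic relative Hspa8 held 2664 and 2682 CPM in vehicle and 2750.2, 3326, 2632 and 3521 in HHT, which overlap (0.19 ± 0.13, adjusted p = 0.462 by edgeR). The disulfide isomerases P4hb (1.50 ± 0.18), Pdia3 (1.48 ± 0.21) and Pdia6 (1.33 ± 0.20) rose as well.

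Enzymes that attach and trim N-linked sugars rose in 15 of 25 cases, with a median of 0.68. The oligosaccharyltransferase subunits Rpn1 (1.48 ± 0.20), Rpn2 (1.43 ± 0.21), Stt3a (1.27 ± 0.19) and Ddost (1.21 ± 0.16) rose, and its small subunit Dad1 (0.40 ± 0.17) did not pass. Cargo receptors of the ER and Golgi, such as Tmed9 (0.94 ± 0.13), Surf4 (0.89 ± 0.14) and the KDEL receptor Kdelr2 (0.91 ± 0.19), rose in 17 of 21 cases (median 0.79). The coat proteins that bend the same transport vesicles rose in 0 of 30 (median -0.01), with Copa at -0.04 ± 0.11 and Sec23a at 0.06 ± 0.11.

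The lysosome showed the highest share of rises among the lists of 10 or more genes. Of 34 hydrolases and their cofactors 31 rose, with a median of 1.06. Ctsb, the protease cathepsin B, held 164 and 264 CPM in vehicle and 639, 559.6, 611 and 626 in HHT (1.55 ± 0.18). Psap, the precursor of the saposins, held 445 and 787 CPM in vehicle and 1988, 1537, 1918 and 1800 in HHT (1.61 ± 0.19). KO vehicle was nearer to HHT than WT vehicle for both. The glucosidase Gaa rose by 2.05 ± 0.36 and cathepsin L (Ctsl) by 1.83 ± 0.18. Of 16 membrane proteins of the lysosome 13 rose (median 1.07), among them Lamp1 (1.25 ± 0.16), Lamp2 (1.42 ± 0.18) and the cholesterol exporter Npc1 (1.36 ± 0.26).

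The vacuolar ATPase, the proton pump of lysosomes and synaptic vesicles, gave a contrast within 1 complex. Of 8 genes for its membrane sector V0 and accessory proteins 7 rose (median 0.89), and of 10 for its cytosolic sector V1 0 rose (median 0.07). Atp6v0a1, the large V0 subunit, held 280.2 and 345 CPM in vehicle and 1023, 610.3, 1069 and 809.8 in HHT (1.49 ± 0.21). Its first predicted segment begins at residue 401. Atp6v1a, the catalytic V1 subunit, held 615 and 574 CPM in vehicle and 622, 716, 605 and 618 in HHT (0.11 ± 0.10), so the groups overlapped. The accessory proteins Atp6ap1 (1.34 ± 0.17) and Atp6ap2 (1.45 ± 0.19) rose, and Atp6v0e (0.23 ± 0.20), a short proteolipid, did not pass.

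Secreted proteins of neurons and the extracellular matrix rose in most cases. Of 30 neuropeptide precursors and granule proteins 24 rose (median 1.14). The opioid precursor Penk held 12.8 and 17.9 CPM in vehicle and 70.7, 64.6, 42.9 and 43.5 in HHT (1.84 ± 0.23). Vgf rose by 1.75 ± 0.25, Chgb by 1.53 ± 0.22 and the processing enzyme Cpe by 1.32 ± 0.16, while Npy (0.59 ± 0.18) and Bdnf (0.38 ± 0.21) did not pass. Of 35 matrix and secreted proteins 25 rose (median 0.94). Vitronectin (Vtn), a plasma and vessel matrix protein, held 3.74 and 11.5 CPM in vehicle and 30.7, 33.7, 27.2 and 43.3 in HHT (2.36 ± 0.29). Sparc (1.51 ± 0.15) and the apolipoprotein Clu (1.4 ± 0.17) rose. Tnr, a large matrix glycoprotein of perineuronal nets, was at 1.4 ± 0.51 and did not pass.

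Adhesion molecules rose in 29 of 37 cases (median 0.92), and guidance cues and their receptors in 32 of 45 (median 0.92). Ncam1 rose by 1.73 ± 0.31, the calsyntenin Clstn3 by 2.08 ± 0.35 and Thy1, which is held by a lipid anchor, by 1.02 ± 0.16. The ephrin receptor Epha4 rose by 1.31 ± 0.26. The secreted cue Slit1 rose by 1.87 ± 0.46, but its call was lost without KO HHT replicate 1 (adjusted p = 0.0704 by edgeR).

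At the synapse the receptors and the scaffolds beneath them were apart. Of 32 ligand-gated channel subunits 21 rose (median 0.87), and of 30 postsynaptic scaffold and signalling genes 0 rose (median -0.15). Grin1, the obligatory NMDA receptor subunit, held 163 and 230.4 CPM in vehicle and 869, 365, 975 and 607 in HHT (1.85 ± 0.32). The AMPA receptor subunit Gria1 rose by 1.26 ± 0.22. Gria2 (0.95 ± 0.33) and the NMDA subunit Grin2b (0.73 ± 0.44) did not pass. Dlg4, the scaffold PSD-95, held 1141 and 1168 CPM in vehicle and 1009, 841, 1039 and 1177 in HHT (-0.19 ± 0.11), so the groups overlapped. Shank1 (-0.16 ± 0.12) and Homer1 (-0.46 ± 0.15) did not pass either.

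The presynaptic side had the same split. Of 24 vesicle membrane proteins 19 rose (median 0.87), and of 37 cytosolic and peripheral presynaptic proteins 0 rose (median -0.14). Synaptophysin (Syp), a vesicle protein with several spans, held 613 and 957 CPM in vehicle and 2075, 1752, 2099.8 and 1977 in HHT (1.37 ± 0.18). Synapsin 1 (Syn1), which coats the same vesicles from outside, held 1919.6 and 2124 CPM in vehicle and 1770.1, 1622, 1919 and 2525 in HHT (-0.06 ± 0.14). Sv2a (1.2 ± 0.25) and the calcium sensor Syt5 (1.33 ± 0.19) rose, while Snap25 (-0.12 ± 0.12) did not pass. G protein-coupled receptors rose in 20 of 37 cases (median 0.80), among them the GABA-B subunit Gabbr1 (1.02 ± 0.18) and the muscarinic receptor Chrm1 (0.86 ± 0.18). G proteins, arrestins and receptor kinases rose in 0 of 32 (median -0.11).

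Of 39 voltage-gated channel genes 13 rose, and their median was 0.64. Cacna2d3, a calcium channel subunit with a signal peptide, rose by 1.32 ± 0.23. The pore subunits Scn1a (0.85 ± 0.34) and Scn2a1 (1.26 ± 0.41) did not pass, and Cacna1a rose by 0.80 ± 0.22 in the fit of all libraries but not without KO HHT replicate 1 (adjusted p = 0.11 by edgeR). Their values differed by replicate number, as for Scn1a with 59.5 and 70.7 CPM in replicate 1 of WT and KO, and 46.4 and 25.1 in replicate 2, against 25.7 and 30.3 in vehicle. The cytosolic subunits of these channels rose in 0 of 17 cases (median -0.13), with Kcnab2 at -0.12 ± 0.10 and Cacnb3 at -0.17 ± 0.10.

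Pumps and transporters of the plasma membrane and ER rose widely. Of 21 P-type pump genes 17 rose (median 1.00). Of 45 plasma membrane transporters 36 rose (median 1.04), among them the chloride exporter Slc12a5 (1.62 ± 0.31) and the glucose transporter Slc2a1 (1.18 ± 0.18). Carriers of the inner mitochondrial membrane also have several spans but are imported after synthesis. Of 33 measured 0 rose (median -0.01), with the ADP/ATP carrier Slc25a4 at -0.06 ± 0.13 and the phosphate carrier Slc25a3 at 0.05 ± 0.16. A segment was predicted in 20 of the 33, and the median of those 20 was 0.02. The mitochondrial import machinery (0 of 20) and the nuclear-encoded respiratory chain (0 of 42, median 0.07) had no calls.

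Tail-anchored proteins of the secretory pathway are embedded in the same membranes as the genes above, and 0 of 44 rose (median -0.07). Vapa (-0.00 ± 0.14) and Sec22b (-0.08 ± 0.13) did not pass, and the highest was Hmox1, heme oxygenase, at 0.43 ± 0.16. Of 19 genes listed as anchored in the outer mitochondrial membrane 2 rose, Akap1 (0.73 ± 0.16), which tethers protein kinase A, and Rmdn3 (0.57 ± 0.14). Their coding sequences carry an N-terminal segment alone, while 14 of the other 17 carry a C-terminal one. Akap1 held 19.7 and 21.3 CPM in vehicle and 40.3, 29.0, 35.8 and 30.6 in HHT, with no overlap. Its call was lost without KO HHT replicate 1 (adjusted p = 0.0542 by edgeR). That of Rmdn3 was lost without the replicate 2 lysate of KO (adjusted p = 0.0788) or WT (0.0647), also by edgeR. Bcl2l1 (-0.09 ± 0.12), Fis1 (0.03 ± 0.15) and Rhot1 (-0.13 ± 0.11) did not pass.

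Sterol synthesis and the unfolded protein response, which senses misfolded protein in the ER, each have members on both sides. Of 19 membrane enzymes and receptors of sterol metabolism 14 rose (median 0.83), and of 8 cytosolic enzymes of the pathway 0 rose (median -0.02). Hmgcs1, a cytosolic enzyme of the pathway, held 310.5 and 315 CPM in vehicle and 334, 336, 317 and 289.7 in HHT (0.03 ± 0.11). Of 20 membrane or lumenal genes of the unfolded protein response 13 rose (median 0.74), such as the ubiquitin ligase Syvn1 (1.49 ± 0.21) and Herpud1 (0.62 ± 0.11). Of 24 cytosolic and nuclear stress genes 1 rose (median 0.01). The transcription factors Atf4 (0.01 ± 0.12) and Ddit3 (-0.17 ± 0.13) did not pass. The gene that rose was Xbp1, a transcription factor whose unspliced mRNA is known to be held at the ER membrane by a hydrophobic stretch of its own nascent protein. It held 59.1 and 58.2 CPM in vehicle and 94.7, 107, 92.1 and 106 in HHT (0.77 ± 0.12, adjusted p = 0.00173 by edgeR). Its predicted segment begins at residue 181.

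Inflammatory genes behaved alike, since 19 of 25 secreted or surface members rose (median 0.90) and 0 of 28 cytosolic or nuclear members did (median 0.12). The chemokine Ccl2 rose by 1.64 ± 0.23, the cytokine Tnf by 0.89 ± 0.16 and the receptor Cd14 by 1.24 ± 0.20. Feedback regulators induced by the same signals, Nfkbia (0.28 ± 0.15), Tnfaip3 (0.19 ± 0.12) and Socs3 (0.12 ± 0.11), did not pass. Immediate early genes had 0 calls among 22 (median -0.15), with Fos at -0.18 ± 0.10 and Arc at -0.14 ± 0.11.

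Markers of each cell type rose or did not according to the kind of product. In bulk tissue fewer cells of a type and less RNA per cell cannot be told apart. Of 22 astrocyte genes for secreted or membrane proteins 18 rose (median 0.92), and of 24 for cytosolic or nuclear proteins 0 rose (median -0.12). The glutamate transporter Slc1a3 held 99.4 and 152 CPM in vehicle and 303, 239.8, 302 and 264 in HHT (1.18 ± 0.19). Gfap, the astrocyte filament protein, held 221 and 203 CPM in vehicle and 176, 235, 163 and 263 in HHT (-0.02 ± 0.18), where replicate 1 lay below and replicate 2 above vehicle. The summed level of the secreted and membrane list was 2567 and 3492 CPM in vehicle and 5627 to 6414 in HHT. That of the cytosolic list was 2712 and 2599 CPM in vehicle and 2089 to 3051 in HHT.

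Oligodendrocyte genes rose in 16 of 23 cases for secreted and membrane products (median 0.72) and in 0 of 23 for cytosolic and nuclear ones (median -0.02). Mag, a myelin adhesion protein, held 95.2 and 139.9 CPM in vehicle and 344, 259, 326 and 305 in HHT (1.42 ± 0.19). The peripheral myelin protein Mbp was at -0.09 ± 0.14 and did not pass. Microglial genes rose in 16 of 28 (median 0.75) and 0 of 27 cases (median -0.03). The fractalkine receptor Cx3cr1 rose by 1.06 ± 0.20, Csf1r (0.56 ± 0.23) did not pass, and the transcription factors Spi1 (-0.03 ± 0.23) and Irf8 (-0.13 ± 0.18) did not pass.

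Genes of endothelial and mural cells rose in 18 of 27 cases for secreted and membrane products (median 1.14). Cldn5, the tight junction protein of brain vessels, held 1.47 and 2.71 CPM in vehicle and 10.3, 7.73, 7.17 and 7.5 in HHT (2.03 ± 0.31). Of 24 cytosolic or nuclear members 2 rose (median 0.05). These were the smooth muscle protein Tagln (0.80 ± 0.23) and the transcription factor Sox7 (0.67 ± 0.20). Their calls were each lost when any 1 of the 4 HHT lysates was left out (adjusted p from 0.0597 to 0.155 by edgeR). Choroid plexus genes, nearly all secreted or membrane proteins, rose in 9 of 12 cases (median 1.12), with Ttr, a thyroxine carrier, at 1.22 ± 0.23. Their summed level was 230.2 and 317 CPM in vehicle and 574 to 738 in HHT. No cytosolic partner list was made for this tissue, so its amount in the slices was not tested. The 2 measured blood genes did not pass, and their summed level was 3.51 CPM in WT vehicle and 2.92 and 2.19 in WT HHT, against 13.5 in KO vehicle and 10.4 and 27.8 in KO HHT.

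Interneuron genes were divided by product as well. Of 17 secreted or membrane products 9 rose (median 0.74), and of 21 cytosolic or nuclear ones 0 rose (median -0.15). The peptide precursor Sst held 86.8 and 115 CPM in vehicle and 209, 210.3, 194 and 256 in HHT (1.12 ± 0.19). The vesicular GABA transporter Slc32a1 rose by 1.17 ± 0.23. The GABA-synthesizing enzyme Gad1 held 419.7 and 388 CPM in vehicle and 399, 387, 381 and 297 in HHT (-0.15 ± 0.12), and calcium-binding Pvalb was at -0.15 ± 0.19. Cytosolic and nuclear genes of pyramidal neurons had 0 calls among 27 (median -0.15). Of 22 striatal and thalamic genes 6 rose. All 6 were among the 9 with a predicted segment (median 0.89), such as the dynorphin precursor Pdyn (1.22 ± 0.17), and 0 rose among the 13 without one (median 0.02), such as Ppp1r1b (-0.03 ± 0.12).

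Genes bound by FMRP are of interest to the study, and 11 of 59 rose (18.6%) and 1 fell (median -0.10), against 12.2% rises over all genes. Divided by product, 11 of the 39 with a predicted segment rose (28.2%, median 0.50), a share near the 31.9% of all genes with a segment. They included App, the amyloid precursor (1.70 ± 0.23), and its relative Aplp1 (1.26 ± 0.16). Among the 20 without a segment 0 rose and Map1a fell (median -0.18). FMRP-bound mRNAs encode long proteins, a property that moves with replicate number in these libraries, as described below.

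Housekeeping genes of the cytosol and nucleus had few calls, and most of their lists had medians near 0. No member was called among 79 ribosomal proteins (median -0.0047), 36 translation factors (median -0.03), 31 proteasome subunits (median 0.04), 17 glycolytic enzymes (median 0.05), 41 splicing factors (median -0.03) and 14 nuclear noncoding RNAs (median 0.04). For ribosomal proteins the median averaged opposite shifts from the vehicle library of the genotype. These were -0.31 and -0.27 in WT and KO replicate 1, and 0.14 and 0.32 in replicate 2. Chromatin regulators had 0 calls among 40 and a median of -0.15, and 0 of the 40 had a positive change. For 12 of them all HHT libraries lay below both vehicle libraries and for 0 above, against 11.3% and 18.4% of all genes. Of 38 cytoskeletal genes 2 fell, the microtubule-associated protein Map1a and the kinesin Kif5c (-0.35 ± 0.10).

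The 30 falls were small, and their number depended on scaling and on the libraries fitted, as given above. Of the 28 with a coding sequence 22 had no predicted segment (78.6%), against 62.2% of all genes with a coding sequence. Map1a held 2052 and 1891 CPM in vehicle and 1495, 929, 1491 and 1215 in HHT (-0.62 ± 0.18, adjusted p = 0.0319 by edgeR). All 4 HHT values lay below both vehicle values. Smim1, a small membrane protein of red cells, held 8.94 and 7.87 CPM in vehicle and 3.96, 4.81, 5.81 and 5.42 in HHT (-0.77 ± 0.21). Ccdc186, a factor in dense-core vesicle formation, went from 15.2 and 15.1 CPM to 8.38, 11.4, 11.1 and 7.92 (-0.66 ± 0.19). The other leading falls included the zinc finger genes Zfp317 (-0.46 ± 0.14) and Zfp324 (-0.45 ± 0.12) and the neural transcription factor Pou3f3 (-0.44 ± 0.12). Among the genes named by rule were 16 falls and 227 rises. Of these, 0 falls and 189 rises kept their call when each of the 4 HHT lysates was left out in turn. The rule picks called genes partly by small adjusted p or large change in these same libraries. The share kept among all 1702 rises was lower. Map1a was lost without KO HHT replicate 2 (adjusted p = 0.119) or WT HHT replicate 2 (0.0789), Smim1 without WT HHT replicate 1 (0.14) and Ccdc186 without KO HHT replicate 2 (0.161) or WT HHT replicate 1 (0.139), all by edgeR.

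The medians of the classes with an N-terminal segment were positive in both genotypes. All 1702 genes that rose had a positive change in WT and in KO slices taken alone, and all 30 that fell had a negative one in each. These genes were called on the mean of the same 2 changes, so their shared sign was largely set by that choice. In WT slices alone 952 genes rose (6.81%) and 4 fell (0.0286%). In KO slices alone 0 genes passed in either direction by edgeR, with 1762 genes at an unadjusted p under 0.05, against 2376 in WT. The difference between genotypes was tested itself and called 0 genes, with 214 at an unadjusted p under 0.05. That is fewer than the 0.05 share of all genes that no difference would give. Each genotype has 1 vehicle library, so 0 calls do not show that the genotypes responded alike. The medians were still smaller in KO, 0.58 against 0.81 in WT for genes with an N-terminal and further segments, and 0.49 against 0.69 for those with an N-terminal segment alone. In the same classes the KO vehicle library lay 0.22 and 0.17 above the WT vehicle library. With 1 vehicle library per genotype, a difference between genotypes and a difference between these 2 libraries cannot be told apart.

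Replicates 1 and 2 of HHT differed by protein length. Among genes without a segment, those up to 150 residues had median differences from the vehicle library of the same genotype of -0.23 and -0.22 in WT and KO replicate 1, and of 0.10 and 0.15 in replicate 2. Those over 1500 residues had -0.09 and -0.03 in replicate 1, and -0.31 and -0.29 in replicate 2. Replicate 2 was thus poorer in mRNAs of long proteins and richer in those of short ones. Among genes with an N-terminal and further segments of 801 to 1500 residues the medians were 1.18 and 0.95 in replicate 1, and 0.63 and 0.48 in replicate 2. At 151 to 300 residues they were 0.68 and 0.48 in replicate 1, and 0.64 and 0.45 in replicate 2. The lowest deposited rescaled TPM was also lower in replicate 2 (0.829 and 0.904) than in the other 4 lysate libraries (1.02 to 1.04). The labels call replicates separate pools of slices, but do not say whether WT and KO libraries of the same number were prepared together. That was not tested, and each vehicle library is the sole one of its genotype. The names of the deposited tables refer to 2 batches without saying which libraries formed them. In a fit that treats the WT and KO libraries of a replicate number as replicates, with genotype as an additive term, 2264 genes rose and 180 fell with HHT replicate 1 against vehicle, and 1932 rose and 667 fell with replicate 2. Its spread is estimated differently, so these counts are not set against those of the other fit. The order of the class medians was the same in both, 0.78 and 0.54 for N-terminal and further segments against -0.12 and -0.01 for no segment.

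**Figure D5:**
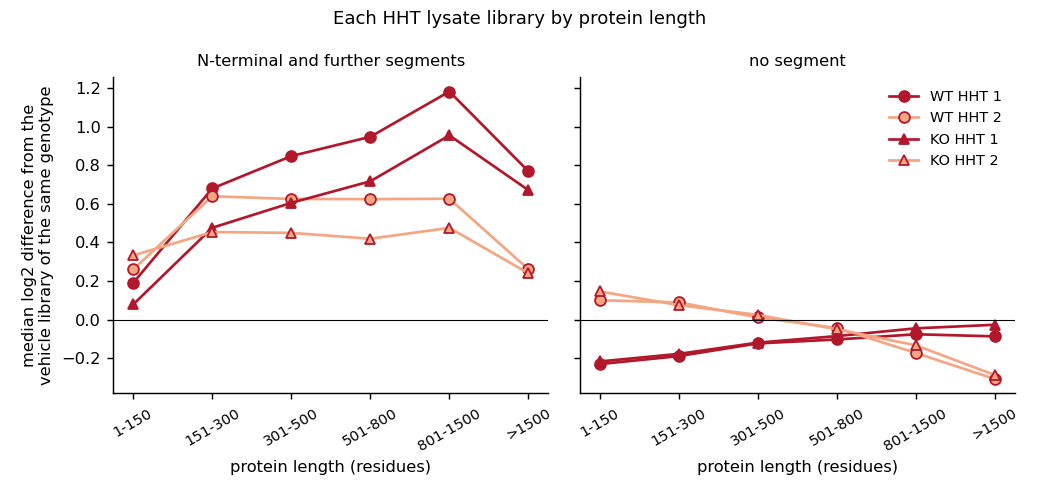
Median log2 difference of each HHT lysate library from the vehicle library of its genotype, by protein length in residues, for genes with an N-terminal and further segments (left) and with no segment (right). Dark lines are replicate 1 and pale lines replicate 2; on the left replicate 1 reaches 1.18 and 0.95 at 801 to 1500 residues, and on the right the lines of replicates 1 and 2 cross.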

How the data were processed

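Total RNA of cleared lysate was sequenced from 6 libraries (4 HHT, 2 vehicle), within a table of 18 libraries in 12 groups by genotype, treatment and fraction. The authors deposited estimated counts (expected counts) per gene, of which 0 of 251514 values are whole within 1e-06. RSEM 1.2.11, Bowtie2 2.1.0, Trimmomatic 0.32, DESeq2 1.16.1 and the build mm10 appear in the submitters' processing notes, which give no roles. A second deposited table, called TPM by the authors, holds a score that is called rescaled TPM here, because several columns sum to more than TPM can. Use of strand or molecular labels in counting, selection of genes and any batch adjustment are not given in the sources used here. An adjustment for batches would make the spread between replicates look too small.

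Rounded counts entered the quasi-likelihood F-test of edgeR 4.0.16 (R 4.3.3) with TMM factors and 12 group means over 18 libraries. Residual degrees of freedom were 6, and the prior added 7.36. Lone vehicle libraries are taken to vary as the HHT pairs do, and the fractions of 1 lysate are treated as independent. The low-count filter kept all 13973 genes. Genotypes were averaged with equal weight, tests were 2-sided, and Benjamini-Hochberg adjustment ran over all genes at 0.05. Every adjusted p is from this test unless another is named, and ± is the SE. Labels call replicates separate pools of slices. Totals ran from 6298975 to 13834652 in the 6 libraries.

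Coding sequences came from GENCODE M21, with 1 transcript per gene. Symbols matched for 13413 genes directly and 470 by synonym, and 13498 had a coding sequence. CPM use TMM-scaled totals, and per-library differences are of log2(CPM + 0.5). Class shares, list counts and medians carry no test, since genes are not replicates. Genes were named by rule: the 6 core members of each list, up to 5 called and 3 not called per list, up to 15 largest rises and falls with a mean of at least 5 CPM, up to 5 called and 5 not called per class, Fmr1 and its paralogs, and 5 by interaction. The comparison, lists and rule were chosen with earlier results of these data known. Mitochondrially encoded mRNAs had 0 measured genes of 13 listed. Other settings were RLE factors, total counts, TMM on genes without a segment, no filter, leaving out each HHT lysate (its 3 libraries), 6 libraries only, each genotype alone, each HHT replicate number alone with genotype as an additive term, blocks for replicate or lysate, limma 3.58.1 on log2(rescaled TPM + 1), DESeq2 1.42.0 and other hydropathy thresholds. The scripts were tested on simulated data. Some genes are not reported here.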

Additional observations from a re-analysis of the deposited data

How the results depend on the processing

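Genes with an N-terminal and further segments had a positive median change in every setting run, from 0.491 to 0.807. Of the 1702 genes that rose, 0 had a negative change in any setting. They were chosen by their rise in these same libraries, so that count was largely fixed in advance. The number of rises ran from 1047 to 1821 when 1 HHT lysate (its 3 libraries) was left out, and the number of falls from 7 to 96. Falls numbered 75 with RLE factors, 230 with total counts, 3 with TMM on genes without a segment, 0 in a fit of the 6 lysate libraries alone and 46 with DESeq2. WT slices alone gave 952 rises and 4 falls, KO slices alone 0 and 0. Limma on rescaled TPM gave 810 rises. HHT replicate 1 alone gave 180 falls and replicate 2 alone 667, in a fit with genotype as an additive term. With a replicate block edgeR called 2139 rises and 345 falls. The labels do not say that a number marks a shared preparation, and the vehicle libraries form no pairs. The names of the deposited tables refer to 2 batches, without tying them to numbers. Deviations between replicates correlated across genes at r = 0.323 between WT and KO lysates. Total counts gave 85.8% rises among all calls, against 98.3%. HHT replicate 2 alone gave 74.3%, in a fit whose spread is estimated differently, so that share is not set against the others. At lower hydropathy thresholds the shares that rose were 33.6% (N-terminal only), 14.3% (internal only), 3.83% (C-terminal only) and 0.408% (none). At higher thresholds they were 43.3%, 34.5%, 13.8% and 2.01%. With replicate 1 alone Aldoc (-0.357) and Rps6 (-0.271) turned negative and passed, and with replicate 2 alone Hba-a2 (0.732) turned positive and passed. The causes were not tested. Lone vehicle libraries limit precision.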
